A study of Mus musculus with 49 samples.

Results

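The 45 genes described here make up the core machinery of cell division and DNA replication. They were taken by name, in a choice made with earlier results of these data known, from 24192 gene names listed in any of the 5 RNA tables of the study. The set holds 5 D cyclins and G1 kinases, 3 inhibitors of cyclin-dependent kinases (CDKs), 6 E cyclins, Cdk2 and E2F factors, 9 origin licensing and helicase genes, 5 genes of DNA synthesis and nucleotide supply, 12 mitotic cyclins, kinases and checkpoint genes, and 5 genes of chromosome and spindle structure. The macrophage table lists all 45 of them, as do the naive T cell table of the libraries labelled KO and both Th17 tables. The naive T cell table of the W250S libraries lists 43, without Cdkn1a and Bub1.

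As background, growth signals raise D cyclins, which join Cdk4 and Cdk6 to release E2F factors from the retinoblastoma protein, and E2F factors then switch on the genes of DNA replication. Later in the cycle the MuvB complex with B-Myb and FoxM1 turns on the mitotic genes, while Cdkn1a (p21), Cdkn1b (p27) and Cdkn2c (p18) hold CDKs back. Bone marrow progenitors grown in the growth factor M-CSF divide as they become macrophages, and bacterial lipopolysaccharide (LPS) is known to stop that division. Naive CD4 T cells rest until their receptor is engaged, and then divide rapidly while they take on a helper fate such as Th17.

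The cells came from C57BL/6 mice of 3 genotypes: wild type (WT), Elf4 knockout (KO), and a W250S substitution in Elf4, which encodes a transcription factor of the ETS family. Bone marrow-derived macrophages, WT and KO, were cultured for 7 days in M-CSF and harvested before or after 4 or 16 h in 100 ng/ml LPS, with 3 libraries in each of the 6 groups. Naive CD4 T cells came in a set of 4 libraries labelled KO with 3 WT, and in a set of 3 libraries of each of W250S and WT. For Th17 cells, T cells of WT and W250S mice spent 48 h in IL-6, IL-23 and IL-1b (named pathogenic) or in IL-6 plus TGF-beta (named non-pathogenic), and each culture has 3 libraries per genotype. Accessible chromatin was mapped by ATAC-seq in 3 WT and 3 KO-labelled libraries of naive CD4 T cells. The labels give no promoter or Cre driver for either Elf4 allele. Each RNA table was normalized on its own, so tests were run only within a table.

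Values are mapped reads scaled to library depth (CPM, reads per M), which are not scaled to gene length, so levels are compared between libraries and not between genes. Log2 changes are differences of log2(CPM + 1), which understates the change of genes near or below 1 CPM, and a change was called where limma, fitted over all genes of a table, gave an adjusted p (Benjamini-Hochberg) below 0.05. The smallest steps between values put the reads in listed genes at 11.0 to 16.0 M in macrophage libraries and at 23.4 to 37.7 M in T cell libraries. Columns sum to 950599 to 954161 CPM in macrophages and to between 472848 and 543838 CPM in T cells. The full depth, which includes reads outside the listed genes, is thus greater. Each RNA library within a table has its own number in the column headings or labels. In the Th17 and KO-labelled naive tables the headings hold only genotype and replicate number. The p-values measure only the spread between these libraries. Macrophage libraries of the same genotype and replicate number had correlated deviations across times (median r 0.22). In macrophages Elf4 stood at 64.6 to 134 CPM in WT and at 15.5 to 32.6 CPM in KO libraries. In naive T cells it stood at 178 to 208 CPM in the libraries labelled KO and at 186 to 195 CPM in their WT, so the transcript goes against that label and the group is called KO-labelled throughout. Macrophage markers summed to 14142 to 30813 CPM in the macrophage libraries. Of 8 CD4 T cell markers, Cd3e, Cd3d and Cd3g are not listed there, but Cd4, Cd28, Lck and Cd247 were high enough to test. In WT macrophages at 4 h of LPS Lck and Cd247 were called higher and Cd4 and Cd28 lower by limma. All 8 CD4 T cell markers were present in every T cell table.

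Promoter sequences of 5 members are shown because they hold, or in 1 case lack, the motifs that recur in replication and mitotic genes. Each line gives the 250 bases before the RefSeq transcription start (build GRCm38.p6), with E2F sites, CHR elements and CCAAT boxes, in either direction, in capitals. Mcm5 (chr8:75109259-75109508, plus strand) and Mcm6 (chr1:128359706-128359955, minus strand), which encode subunits of the replicative helicase, carry an E2F site. Cdk1 (chr10:69352913-69353162, minus strand), the mitotic kinase, and Top2a (chr11:99024190-99024439, minus strand), the topoisomerase that untangles chromosomes, carry a cell cycle homology region (CHR), the element bound by MuvB, and Cdk1 also carries an E2F site. Cdkn1a (chr17:29093519-29093768, plus strand) holds none of the motifs searched.
Mcm5: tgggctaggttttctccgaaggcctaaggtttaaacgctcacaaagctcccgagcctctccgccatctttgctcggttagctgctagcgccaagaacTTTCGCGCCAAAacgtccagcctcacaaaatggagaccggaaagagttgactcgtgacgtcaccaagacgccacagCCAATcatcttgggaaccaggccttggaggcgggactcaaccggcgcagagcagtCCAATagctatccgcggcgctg
Mcm6: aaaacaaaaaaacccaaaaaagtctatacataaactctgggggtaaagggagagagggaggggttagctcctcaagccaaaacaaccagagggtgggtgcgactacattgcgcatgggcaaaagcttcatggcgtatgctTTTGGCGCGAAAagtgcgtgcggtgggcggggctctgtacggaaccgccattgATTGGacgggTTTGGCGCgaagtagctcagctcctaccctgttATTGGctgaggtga
Cdk1: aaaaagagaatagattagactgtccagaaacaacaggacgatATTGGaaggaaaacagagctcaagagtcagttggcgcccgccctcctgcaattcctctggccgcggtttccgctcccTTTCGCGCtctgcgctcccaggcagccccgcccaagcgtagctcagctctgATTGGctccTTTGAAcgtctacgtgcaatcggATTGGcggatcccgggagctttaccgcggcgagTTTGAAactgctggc
Top2a: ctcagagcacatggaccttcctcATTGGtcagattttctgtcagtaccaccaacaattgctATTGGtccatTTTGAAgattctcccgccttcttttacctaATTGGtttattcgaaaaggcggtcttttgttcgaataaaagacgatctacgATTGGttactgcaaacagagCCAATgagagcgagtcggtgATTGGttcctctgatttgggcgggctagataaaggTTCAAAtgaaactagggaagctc
Cdkn1a: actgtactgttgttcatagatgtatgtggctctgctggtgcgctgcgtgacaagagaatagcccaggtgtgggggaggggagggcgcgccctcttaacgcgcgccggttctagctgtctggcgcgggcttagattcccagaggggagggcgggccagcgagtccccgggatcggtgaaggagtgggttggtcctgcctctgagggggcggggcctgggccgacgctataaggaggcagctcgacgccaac

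RefSeq promoters were at hand for 36 of the 45 members and for 27025 genes in all, and each was searched on both strands from 250 bases before to 50 after the start. The E2F site, in any of the forms TTTGGCGC, TTTCCCGC, TTTGCCGC and TTTCGCGC, was found in 10 members (27.8%) against 2.6% of all genes. It stood in 6 of the 7 licensing and helicase promoters, namely those of Cdc6, Cdt1, Mcm3, Mcm5, Mcm6 and Mcm7, and in those of Cdk2, E2f2, Pclaf and Cdk1. The CHR, TTTGAA, was found in 13 members (36.1%) against 20.2% of all genes. It stood in 6 of 9 promoters of mitotic cyclins, kinases and checkpoint genes (Ccnb2, Cdk1, Plk1, Aurka, Bub1b, Cdc20), in all 4 of chromosome and spindle genes (Mki67, Top2a, Kif11, Cenpa), and in E2f2, E2f8 and Mcm2. The CCAAT box, bound by NF-Y, was found in 27 members (75.0%) against 41.1% of all genes. A core ETS site, CCGGAAG, was found in 5 members (13.9%; Ccnd3, Tyms, Aurka, Cdc20 and Mki67) against 9.9% of all genes. A match only describes the letters in the window.

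LPS took away most of this program in WT macrophages, while single G1 genes rose. At 4 h 42 members fell and 3 rose, the G1 genes Ccnd2 and Cdk6 and the inhibitor Cdkn1a, where 71.3% of the 12058 genes tested fell and 15.6% rose. The median change over the members was -2.44 against -0.81 over all genes. At 16 h 42 fell and 2 rose (Ccnd2 and Cdkn1a), where 56.5% of all genes fell and 18.3% rose, and the median was -4.30 against -0.41 over all genes. The deposited scaling thus sets most genes lower after LPS, and median-ratio scaling, which brings the median of all genes to -0.03 at 4 h and 0.00 at 16 h, left 41 lower and 3 higher at each time. In cultures measured in bulk, fewer dividing cells and less RNA of these genes per cell cannot be told apart.

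The median member kept 17.9% of its mean CPM at 0 h after 4 h and 4.28% after 16 h. By role, the share left at 16 h had a median of 2.60% for mitotic cyclins, kinases and checkpoint genes and 3.31% for chromosome and spindle genes. It was 5.01% for DNA synthesis, 6.10% for E cyclins, Cdk2 and E2F factors and 6.99% for licensing and helicase genes. G1 cyclins and kinases kept 56.6% and CDK inhibitors 59.0%. At 4 h the order differed, with the E cyclin and E2F group lowest at 8.25% and DNA synthesis at 24.8%. The heat map of the macrophage libraries shows both the general loss and the few genes that stay or rise.

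**Figure D1:**
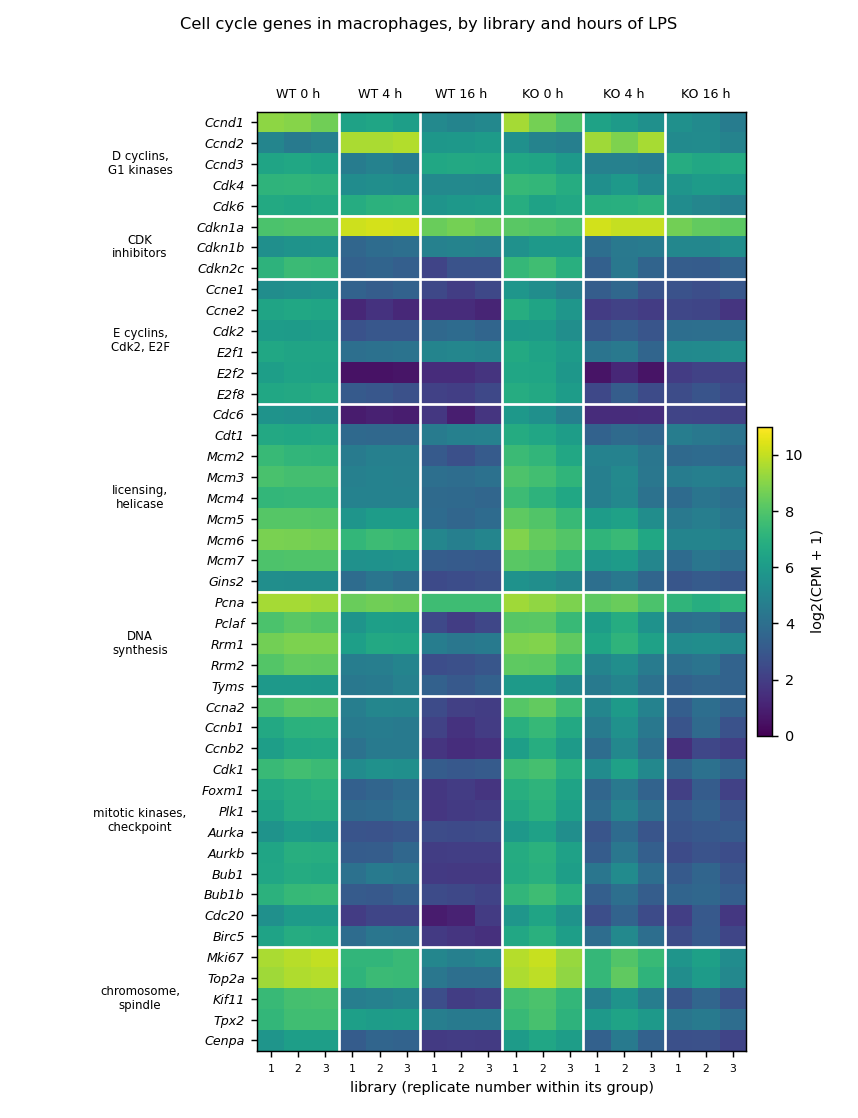
Heat map of log2(CPM + 1) for the 45 members (rows, by role) in the 18 macrophage libraries (columns, by genotype and hours of LPS). Most rows darken from 0 h to 16 h in both genotypes, while Ccnd2 and Cdkn1a are brightest at 4 h.

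The 3 D cyclins, which pair with Cdk4 and Cdk6, each took their own course. Ccnd1 stood at 566, 510 and 389 CPM in untreated WT libraries, at 80.0, 87.6 and 70.4 CPM at 4 h and at 34.7, 30.2 and 33.7 CPM at 16 h. Each time group lies below the one before, with log2 changes against 0 h of -2.59 (SE 0.29, adjusted p = 1.29e-07) and -3.84 (SE 0.29, adjusted p = 1.30e-09). Ccnd2 stood at 31.0, 21.8 and 26.4 CPM at 0 h, at 783, 766 and 844 CPM at 4 h and at 55.05, 56.5 and 63.9 CPM at 16 h. All 4 h libraries are far above the others and the 16 h libraries stay above the untreated ones, with changes of 4.88 (SE 0.19, adjusted p = 9.18e-14) and 1.13 (SE 0.19, adjusted p = 3.35e-05). Ccnd3 stood at 85.2, 92.0 and 83.1 CPM at 0 h, at 23.2, 28.5 and 23.8 CPM at 4 h and at 93.0, 97.8 and 97.1 CPM at 16 h. It fell by 1.75 at 4 h (SE 0.12, adjusted p = 1.53e-10) and at 16 h lay just above its 0 h libraries, with a change of 0.15 that was not called (adjusted p = 0.272) and was 0.61 and called after median-ratio scaling (adjusted p = 0.000103).

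Of the kinases, Cdk4 fell, from 142, 147 and 137 CPM to 39.4, 41.8 and 39.4 CPM at 4 h and 34.8, 35.1 and 33.9 CPM at 16 h, changes of -1.80 and -2.005. Cdk6 read 103, 93.4 and 103 CPM at 0 h, 112, 134 and 136 CPM at 4 h and 50.1, 57.3 and 61.9 CPM at 16 h. Its rise at 4 h was small (0.35, SE 0.14, adjusted p = 0.0271) and was lost without WT 0 h replicate 2 (adjusted p = 0.0863), WT 4 h replicate 2 (adjusted p = 0.0818) or WT 4 h replicate 3 (adjusted p = 0.0905), while its fall at 16 h was -0.81 (adjusted p = 4.78e-05).

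The CDK inhibitors did not move together either. Cdkn1a, a target of p53 that blocks Cdk2, stood at 237, 251.8 and 248 CPM at 0 h, at 1142, 1254 and 1163 CPM at 4 h and at 358, 413 and 357 CPM at 16 h. The 4 h libraries are the highest and the 16 h libraries stay above the untreated ones, by 2.27 (SE 0.11, adjusted p = 1.23e-12) and 0.61 (SE 0.11, adjusted p = 5.37e-05). Cdkn1b, which holds resting cells in G1, went from 43.3, 49.1 and 50.6 CPM to 11.3, 13.9 and 15.3 CPM and then 27.9, 29.2 and 27.2 CPM. It fell by 1.75 at 4 h and by 0.74 at 16 h (adjusted p = 0.000213), and the later fall was -0.28 and not called after median-ratio scaling (adjusted p = 0.102). Cdkn2c, an inhibitor of Cdk4 and Cdk6, fell by 3.90 and 4.70, from 137 to 181 CPM at 0 h to 3.84 to 6.08 CPM at 16 h. The plot of G1 genes by time shows these courses in every library.

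**Figure D2:**
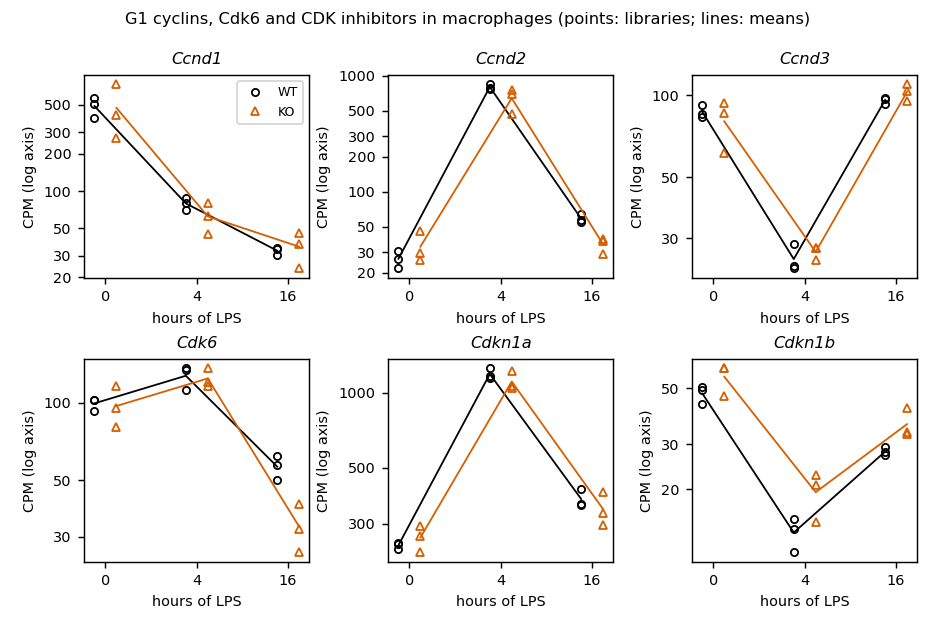
CPM (log axis) of Ccnd1, Ccnd2, Ccnd3, Cdk6, Cdkn1a and Cdkn1b against hours of LPS (0, 4 and 16 h, drawn evenly spaced), with WT libraries as circles, KO libraries as triangles and lines joining the group means. Ccnd2 and Cdkn1a peak at 4 h, Ccnd3 and Cdkn1b dip there, and the KO libraries lie below the WT at 16 h for Ccnd2 and Cdk6.

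All 6 genes of the E cyclin and E2F group fell at both times. E2f2, a transcriptional activator, stood at 70.1, 81.9 and 80.5 CPM at 0 h and at 0.433, 0.456 and 0.520 CPM at 4 h, and read 1.63, 1.65 and 2.14 CPM at 16 h. The 4 h libraries are the lowest, a change of -5.74 (SE 0.18, adjusted p = 8.71e-15), and at 16 h it was -4.81. Ccne2, a cyclin that drives entry into S phase with Cdk2, went from 85.9, 92.8 and 86.4 CPM to 1.35, 2.07 and 1.37 CPM and then 1.60, 1.64 and 1.22 CPM, changes of -5.11 and -5.17. Cdk2 itself fell by 3.16 and 2.36, E2f1 by 2.36 and 1.49, Ccne1 by 2.13 and 3.25 and the repressor E2f8 by 3.73 and 4.46.

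From 4 h to 16 h in WT cells 35 members fell further, 7 rose and 3 were not called (Cdk4, Ccne2 and Aurka), where 22.1% of all genes fell and 51% rose. The risers were Ccnd3 (1.90), Cdkn1b (1.02), Cdt1 (1.01), E2f2 (0.93), E2f1 (0.87), Cdk2 (0.81) and Cdc6 (0.57). Over all genes the median was 0.35, and after median-ratio scaling 6 members rose and 37 fell, with Cdc6 no longer called (0.35, adjusted p = 0.174). Cdc6, which loads the helicase onto origins, stood at 0.780, 0.988 and 0.817 CPM at 4 h and at 2.42, 0.924 and 2.21 CPM at 16 h, and those groups overlap. Leaving out any WT library of either time except WT 4 h replicate 2 and WT 16 h replicate 2 ended its call (adjusted p from 0.0722 to 0.148).

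Licensing and helicase genes all fell at both times, and most fell further between them. Cdc6 fell the most at 4 h (-4.65), and Mcm7 the most at 16 h, from 239, 246 and 250 CPM to 8.52, 7.92 and 7.39 CPM (-4.78, SE 0.20, adjusted p = 6.29e-13). Mcm2, Mcm3, Mcm4 and Mcm5 stood between -2.11 and -2.94 at 4 h and between -3.59 and -4.31 at 16 h. Mcm6 fell late: 445, 427 and 403 CPM became 157, 185 and 167 CPM at 4 h and 31.8, 25.8 and 31.5 CPM at 16 h, changes of -1.32 and -3.80. Cdt1, the licensing factor that is degraded in S phase, showed the opposite order, with -2.88 at 4 h and -1.87 at 16 h. Gins2, a subunit of the GINS complex of the active helicase, fell by 1.36 and 2.81.

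In DNA synthesis and nucleotide supply Pcna, the sliding clamp of the polymerases, changed least. It stood at 723, 724 and 661 CPM at 0 h, 358, 397 and 370 CPM at 4 h and 191, 192 and 193 CPM at 16 h, and the groups do not overlap. Its change at 4 h was -0.90 (SE 0.14, adjusted p = 8.36e-06), close to the median of all genes, and 0.011 after median-ratio scaling (adjusted p = 0.942), and at 16 h it was -1.86. Pclaf, which binds Pcna during replication, went from 239, 289.2 and 256 CPM to 51.2, 73.2 and 70.3 CPM and then to 4.33, 2.97 and 4.07 CPM (-2.01 and -5.78). Rrm2, the cell cycle-bound subunit of the enzyme that makes deoxynucleotides, went from 263.8, 332 and 312.9 CPM to 24.6, 25.3 and 29.8 CPM and 5.04, 5.48 and 6.63 CPM (-3.46 and -5.50). Its partner Rrm1 fell by 2.29 and 4.26, and Tyms, which makes thymidylate, by 1.33 and 2.63.

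Every mitotic gene fell at 4 h and again by 16 h, Aurka excepted in the later step, where the call on Cdc20 was lost without WT 4 h replicate 2 or 3 or WT 16 h replicate 1 or 2 (adjusted p from 0.0567 to 0.0979). Ccna2, the cyclin of S phase and early mitosis, stood at 226, 288.5 and 282 CPM at 0 h, 25.2, 32.0 and 31.5 CPM at 4 h and 4.72, 3.24 and 3.04 CPM at 16 h. The groups lie apart at each step. Bub1b, a checkpoint kinase, fell early, from 131, 165 and 170 CPM to 7.80, 7.52 and 9.43 CPM (-4.08) and then 4.69, 4.29 and 3.66 CPM (-4.90). Ccnb2, a B cyclin, and Cdk1, its kinase, fell later, by 2.09 and 2.08 at 4 h and by 4.91 and 4.42 at 16 h. Foxm1, the factor that drives mitotic genes, fell by 3.24 and 5.04, and the remaining members, Ccnb1, Plk1, Aurka, Aurkb, Bub1, Cdc20 and Birc5, by 2.34 to 3.67 at 4 h and by 3.36 to 5.00 at 16 h.

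Among the structural genes the proliferation marker Mki67 stood at 784, 903 and 1008 CPM at 0 h, 152, 150 and 173 CPM at 4 h and 31.8, 26.5 and 30.9 CPM at 16 h (-2.49 and -4.87). Kif11, the motor that splits spindle poles, went from 169, 216 and 221 CPM to 24.9, 27.3 and 31.3 CPM and to 5.33, 3.03 and 3.38 CPM (-2.81 and -5.39). For both genes the libraries separate by time with no overlap. Top2a went from 680 to 869 CPM at 0 h to 15.3 to 19.6 CPM at 16 h, and kept 20.8% of its 0 h mean at 4 h and 2.12% at 16 h. Tpx2, which builds spindle microtubules, fell least, from 156, 196 and 195 CPM to 72.6, 67.6 and 69.6 CPM and 25.1, 21.2 and 21.5 CPM (-1.36 and -2.96), and Cenpa, the centromeric histone, by 2.58 and 4.11.

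Before LPS no member was called by limma between KO and WT macrophages, where 0.44% of the genes tested were called either way. At 0 h 1 member had an unadjusted p below 0.05 (Pcna, -0.30). After 4 h again none was called, where 4.19% of all genes were, with 4 members below 0.05 unadjusted (Cdkn1b, Ccne2, Cdc6 and Pcna). The median difference of the members was -0.07 at 0 h and 0.15 at 4 h. Leaving out KO 4 h replicate 1 called Cdkn1b higher in KO at 4 h (0.66, adjusted p = 0.0146).

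The response of KO cells to LPS was close in counts to that of WT at 4 h, with smaller changes at 16 h. At 4 h 42 members fell and 3 rose in KO, where 70.8% of all genes fell and 15.6% rose, with a median of -2.27 against -0.77 over all genes. The risers were again Ccnd2, Cdk6 and Cdkn1a, and the call on Cdk6 (0.37) was lost without KO 0 h replicate 2 (adjusted p = 0.133) or KO 4 h replicate 3 (adjusted p = 0.0874). At 16 h 42 fell and 2 rose (Ccnd3 and Cdkn1a, 0.37 each), where 50.1% of all genes fell and 17.8% rose. The call on Ccnd3 was lost without KO 0 h replicate 3 (adjusted p = 0.0658). The median change at 16 h was -3.54 against -0.30 over all genes. The median member kept 8.11% of its 0 h mean in KO at 16 h, against 4.28% in WT. After median-ratio scaling 3 rose and 40 fell at 4 h, and 2 rose and 41 fell at 16 h. From 4 h to 16 h in KO 29 members fell and 8 rose, where 19.6% of all genes fell and 55.7% rose. Those 8 were the 7 that rose in WT and Cdk4, whose 0.32 became -0.17 after median-ratio scaling and whose call was lost without KO 4 h replicate 1 or 3 or KO 16 h replicate 2 or 3, or with no filter on low values (adjusted p = 0.0511).

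After 16 h of LPS most of the replication and mitotic genes stood higher in KO than in WT macrophages, while Ccnd2, Cdk6 and Pcna stood lower. Of the 45 members 23 were higher and 3 lower, where 20.9% of all genes were higher and 9.65% lower, and the median difference was 0.64 against 0.12 over all genes. Higher genes numbered 7 of 12 in the mitotic group (median 1.00), 4 of 5 in chromosome and spindle structure (0.85), 3 of 5 in DNA synthesis (0.78), 5 of 9 in licensing (0.64), 2 of 6 in the E cyclin and E2F group (0.48), 1 of 3 inhibitors (0.34) and 1 of 5 G1 genes (0.06). The 12 mitotic genes together summed to 37.4 to 42.0 CPM in WT and 74.0 to 117 CPM in KO libraries, and the 9 licensing genes to 110 to 123 and 138 to 163 CPM. The plot of differences by gene shows all 45 at 0 and 16 h.

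**Figure D3:**
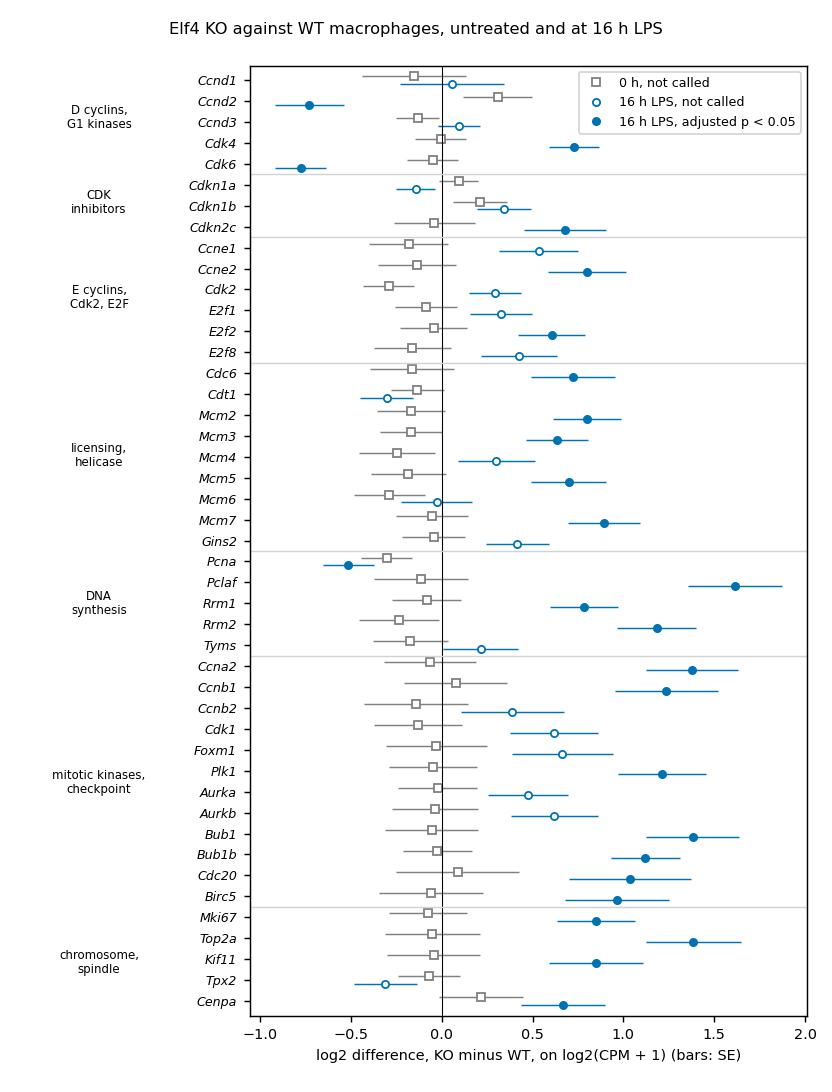
Difference between KO and WT macrophages in log2(CPM + 1) (points, with SE bars) for the 45 members at 0 h (grey squares) and 16 h of LPS (blue circles, filled where adjusted p was below 0.05). At 0 h no point is called, and at 16 h 23 filled points lie to the right of 0 and 3 to the left.

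In the G1 group 3 genes differed. Ccnd2 stood at 55.05, 56.5 and 63.9 CPM in WT and at 37.6, 39.0 and 28.8 CPM in KO at 16 h, and all KO libraries are lower (-0.73, SE 0.19, adjusted p = 0.00852). Cdk6 stood at 50.1, 57.3 and 61.9 CPM in WT and at 40.2, 32.3 and 26.1 CPM in KO, again with all KO libraries lower (-0.78, SE 0.14, adjusted p = 0.000867). Cdk4 went the other way, with 34.8, 35.1 and 33.9 CPM in WT and 52.2, 63.8 and 58.4 CPM in KO, and all KO libraries higher (0.73, SE 0.14, adjusted p = 0.00127). The differences of Ccnd1 (0.06) and Ccnd3 (0.10) were not called and changed sign after median-ratio scaling (-0.05 and -0.02). Of the inhibitors Cdkn2c was higher (0.68, adjusted p = 0.0298), with 3.84, 6.00 and 6.08 CPM in WT and 8.57, 8.16 and 10.2 CPM in KO, while Cdkn1a (-0.14) and Cdkn1b (0.34) were not called.

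Ccne2 stood at 1.60, 1.64 and 1.22 CPM in WT and at 4.00, 3.88 and 2.29 CPM in KO (0.80, SE 0.21, adjusted p = 0.00995), and E2f2 at 1.63, 1.65 and 2.14 against 2.91, 3.44 and 3.46 CPM (0.61, adjusted p = 0.02003). In neither gene do the genotypes overlap. Of the licensing genes Mcm7 (0.89, adjusted p = 0.00316), Mcm2 (0.80, adjusted p = 0.00455), Cdc6 (0.72), Mcm5 (0.70) and Mcm3 (0.64) were higher. Mcm7 read 8.52, 7.92 and 7.39 CPM in WT and 13.5, 18.7 and 15 CPM in KO. Mcm6, a subunit of the same helicase ring, read 31.8, 25.8 and 31.5 against 30.3, 30.1 and 26.7 CPM (-0.03), and Cdt1 (-0.30), Mcm4 (0.30) and Gins2 (0.42) were not called. Cdt1 was called lower after median-ratio scaling (-0.41, adjusted p = 0.0304), as was the spindle gene Tpx2 (-0.42, adjusted p = 0.0459).

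DNA synthesis genes split. Pclaf had the greatest difference of all members, with 4.33, 2.97 and 4.07 CPM in WT and 14.9, 15.9 and 10.4 CPM in KO (1.61, SE 0.26, adjusted p = 0.000320). Rrm2 stood at 5.04, 5.48 and 6.63 CPM in WT and at 15.3, 17.8 and 10.4 CPM in KO (1.18, SE 0.22, adjusted p = 0.000953), and Rrm1 was higher too (0.78). Both Pclaf and Rrm2 have every KO library above every WT library. Pcna was lower, with 191, 192 and 193 CPM in WT against 148, 116 and 141 CPM in KO (-0.51, SE 0.14, adjusted p = 0.0107), a call lost without KO 16 h replicate 2 (adjusted p = 0.0603). Tyms (0.21) was not called.

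In the mitotic group Bub1, a spindle checkpoint kinase, stood at 2.70, 2.51 and 2.55 CPM in WT and at 7.72, 11.1 and 6.73 CPM in KO (1.38, adjusted p = 0.00105). Ccna2 ranged from 3.04 to 4.72 CPM in WT and from 8.64 to 14.9 CPM in KO (1.38, adjusted p = 0.00101). Bub1b stood at 4.69, 4.29 and 3.66 against 10.6, 11.7 and 8.76 CPM (1.12, SE 0.19, adjusted p = 0.000503), and Plk1, the polo-like kinase, at 2.34, 2.64 and 3.04 against 7.19, 9.58 and 6.08 CPM (1.21, SE 0.24, adjusted p = 0.00163). The KO libraries are the higher ones in each of these genes, with no overlap. Ccnb1 (1.24, adjusted p = 0.00403), Cdc20 (1.04, adjusted p = 0.0277) and Birc5 (0.97, adjusted p = 0.0171) were also higher, although Cdc20 overlapped between 2.76 CPM in a WT and 2.44 CPM in a KO library. Ccnb2 (0.39), Cdk1 (0.62), Foxm1 (0.66), Aurka (0.48) and Aurkb (0.62) were not called. Of the structural genes Top2a differed most, at 15.3 to 19.6 CPM in WT and 34.4 to 65.0 CPM in KO (1.38, adjusted p = 0.00113). Mki67 read 31.8, 26.5 and 30.9 CPM in WT and 52.5, 76.0 and 39.9 CPM in KO (0.85, SE 0.22, adjusted p = 0.00740), and Kif11 (0.85) and Cenpa (0.67) were higher as well.

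KO replicate 2 was the highest KO library at 16 h for most mitotic and structural genes, and without it 15 members rather than 23 were called higher. The genes called whichever of the 6 libraries at 16 h was left out were 17 of the 26: Bub1, Bub1b, Ccna2, Ccnb1, Ccnd2, Ccne2, Cdk4, Cdk6, Mcm2, Mcm3, Mcm7, Mki67, Pclaf, Plk1, Rrm1, Rrm2 and Top2a. Without KO 16 h replicate 2 the calls on Birc5 (adjusted p = 0.0922), Cdc20 (0.162), Cdc6 (0.0664), Cdkn2c (0.0503), E2f2 (0.0625), Kif11 (0.113) and Mcm5 (0.0758) were lost. Cenpa lost its call without any single library except KO 16 h replicate 3 (adjusted p from 0.0733 to 0.123). Cdkn2c lost it also without WT replicate 1 (0.146), KO replicate 1 (0.0506) or KO replicate 3 (0.0914), and E2f2 without WT replicate 1 (0.0673), WT replicate 2 (0.0643) or KO replicate 3 (0.0534). Cdc6 lost it without WT replicate 2 (0.144) or KO replicate 1 (0.0631), Cdc20 without WT replicate 1 (0.122) or 2 (0.0936), Kif11 without WT replicate 2 (0.0808) or 3 (0.0656), Birc5 without WT replicate 3 (0.0621) and Mcm5 without WT replicate 2 (0.0670). Leaving out KO replicate 2 at every time, a setting chosen after seeing the data, gave 23 higher and 4 lower.

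That replicate also held the most stromal transcripts. The 9 stromal markers (collagens, Sparc, Dcn and others) summed to 616 to 1129 CPM in WT and to 1587, 3178 and 1023 CPM in KO replicates 1, 2 and 3 at 16 h. Already at 0 h they summed to 465 to 838 CPM in WT and to 1094, 2035 and 656 CPM in KO, when no member was called. Macrophage markers summed to 19960 to 21248 CPM in WT and 25104 to 30813 CPM in KO at 16 h. The part of either marker group in the differences between genotypes was not tested.

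A test of whether the change from 0 to 16 h itself differed between genotypes called 9 members higher in KO and 2 lower, where 3.62% of all genes were higher and 2.83% lower. The 9 were Pclaf (1.73, SE 0.36, adjusted p = 0.0125), Rrm2 (1.42, SE 0.31, adjusted p = 0.0151), Bub1, Ccna2, Top2a, Plk1, Bub1b, Mcm2 and Cdk4, and the 2 were Ccnd2 (-1.04, SE 0.27, adjusted p = 0.0307) and Cdk6 (-0.73, SE 0.20, adjusted p = 0.0381). Ccnd2 ran from 45.4, 29.4 and 25.9 CPM at 0 h through 694, 469 and 752 CPM at 4 h to 37.6, 39.0 and 28.8 CPM at 16 h in KO, so that its 16 h and 0 h libraries overlap there (0.09, adjusted p = 0.676). The median of this difference was 0.72 over the members and 0.11 over all genes. The number of higher members was 2 without WT 0 h replicate 2, WT 0 h replicate 3, WT 16 h replicate 3 or KO 16 h replicate 2, 3 without KO 0 h replicate 3 or WT 16 h replicate 2, 5 without WT 16 h replicate 1 and 14 without KO 0 h replicate 1. The lower calls were 0 without WT 0 h replicate 2 or 3, WT 16 h replicate 2 or 3 or KO 16 h replicate 3, and 1 without WT 0 h replicate 1, KO 0 h replicate 1 or 3, WT 16 h replicate 1 or KO 16 h replicate 2. Pclaf and Rrm2 were called in all 12 of these fits. With a replicate block, which links libraries of the same genotype and number across times, 13 members gained a call and 32 were unchanged. The labels do not say that such libraries share an animal. For the change from 0 to 4 h no member was called, where 0.00829% of all genes were, with 3 members below 0.05 unadjusted.

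Other genes of the same pathways, from lists of DNA replication, mitosis and cell cycle regulators, are given beside the members. Over all genes tested, 56.5% fell in WT at 16 h. In KO against WT at 16 h, 20.9% of all genes were higher and 9.65% lower. Of 40 other replication genes all 40 fell in WT at 16 h (median -3.06), and 20 were higher in KO than in WT at 16 h with none lower (median 0.49), among them Exo1 (1.08) and Cdc45 (1.05). After median-ratio scaling 17 were higher. Of 46 other mitosis genes 45 fell in WT at 16 h (median -4.56), among them Aspm (-5.50), Cenpf (-5.49) and Racgap1 (-5.30), and 31 were higher and 1 lower in KO at 16 h (median 0.80), with Ncapd2 (1.28), Cdca3 (1.25) and Anln (1.25) the leading genes and 25 higher after median-ratio scaling.

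The exception on both counts was Pttg1, securin, which restrains the separation of sister chromatids. It rose in WT at 16 h from 12.9 to 13.8 CPM to 33.7 to 38.6 CPM (1.36, SE 0.10, adjusted p = 5.81e-10), and in KO from 14.2 to 17.1 CPM to 20.4 to 26.4 CPM (0.61). The genotypes do not overlap at 16 h, with KO lower (-0.57, adjusted p = 0.000483). Of 36 other regulators 28 fell and 2 rose in WT at 16 h, where 56.5% of all genes fell and 18.3% rose, and 23 fell and 7 rose after median-ratio scaling. Btg2, an antiproliferative gene (0.85), and Max, the partner of Myc (0.41), rose, while E2f7 (-4.82), Mybl2, which encodes B-Myb (-4.40), and Pkmyt1 (-4.05) led the fall. In KO against WT at 16 h 5 regulators were higher, led by Pkmyt1 (0.90), the checkpoint kinase Chek1 (0.78) and Tfdp1 (0.67), and 2 lower, including Max (-0.22), where 20.9% of all genes were higher and 9.65% lower.

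Of 15 other p53 target genes, listed because Cdkn1a is a member of that response, 3 rose and 12 fell in WT at 4 h, near the 15.6% and 71.3% of all genes, and 5 rose and 7 fell after median-ratio scaling. Among them were Mdm2 (1.46), Gadd45a (0.76) and Plk2 (0.63), which rose. At 16 h 2 were higher in KO (Sesn1 0.54 and Bax 0.23) and 3 lower (Plk2 -1.85, Mdm2 -0.45 and Rrm2b -0.37), and none higher after median-ratio scaling. Over all genes 20.9% were higher and 9.65% lower in that comparison.

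Resting T cells held little of the late cell cycle program and the Th17 cultures held far more of it. Levels in naive and Th17 cells come from tables normalized separately and are set side by side, without a test. A member was counted as higher or lower where the group means of log2(CPM + 1) lay at least 1 apart and the libraries did not overlap. Genes, members or not, were compared where at least 3 of the naive and Th17 libraries in a comparison reached 1 CPM. Only 22 members reached 1 CPM in at least 3 naive libraries of the W250S set. The other members compared needed Th17 libraries to enter and could hardly come out lower. For them the filter largely set the direction, though not the size of the difference. Of 42 members that could be compared in WT cells, 38 were higher and 1 lower in non-pathogenic Th17 than in naive cells, where 24.2% of all genes were higher and 11.7% lower. For pathogenic Th17 cells the counts were 38 and 1, where 24.3% of all genes were higher and 11.8% lower. Median differences were 3.51 and 3.39, against 0.27 and 0.28 over all genes. The lower gene was Cdkn1b, and Ccnd2, Ccnd3 and Gins2 were neither. All of these are among the 22 members that reached 1 CPM in naive cells, and the rest of those 22 were higher in both cultures. In W250S cells 39 were higher and 1 lower in each culture, where 23.4% of all genes were higher in each, and 13.4% (non-pathogenic) and 14.2% (pathogenic) lower.

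**Figure D4:**
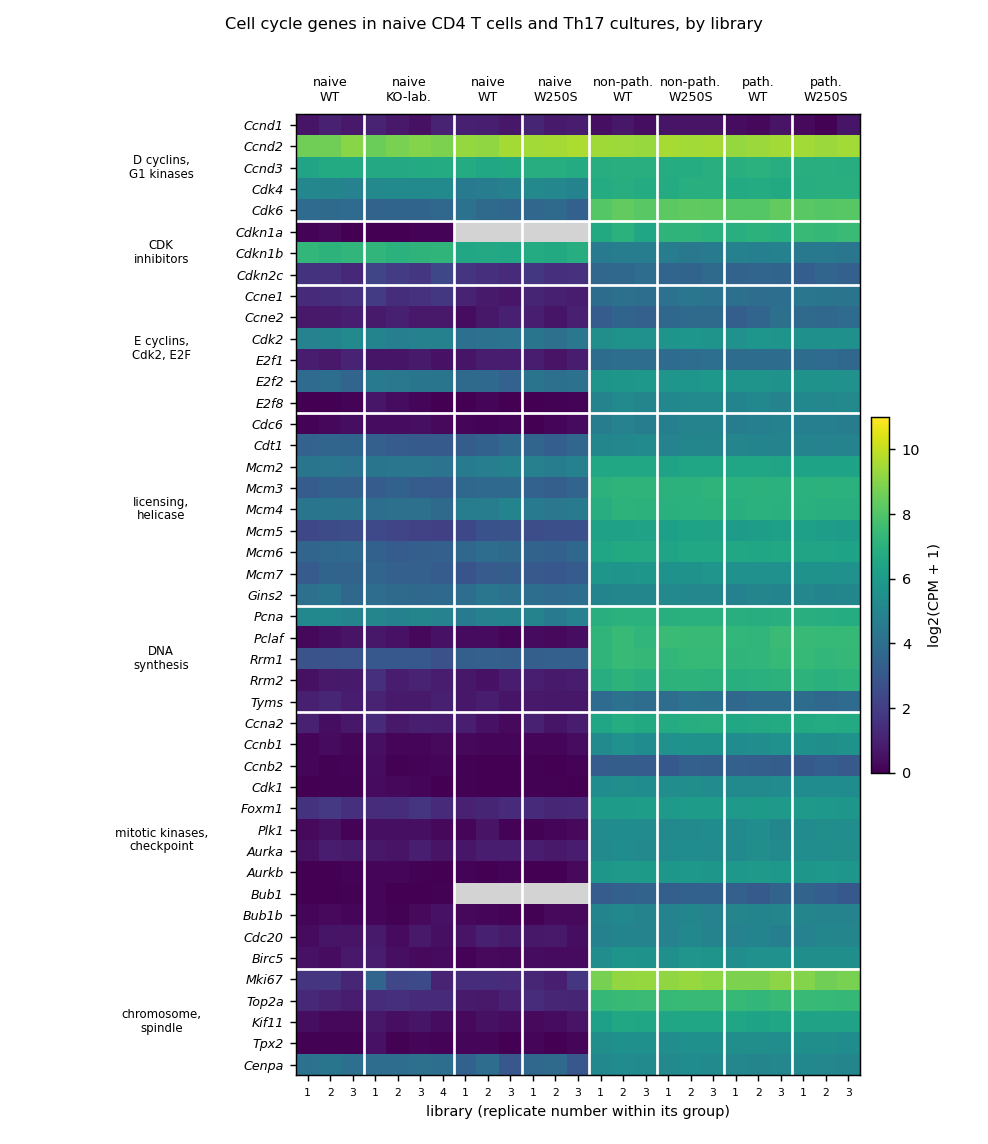
Heat map of log2(CPM + 1) for the 45 members (rows, by role) in the 25 T cell libraries (columns, by set and genotype; grey: not listed in that table). Naive libraries are dark for most mitotic genes, with bright rows for Ccnd2, Ccnd3 and Cdkn1b. The Th17 libraries are brighter than the naive ones for most rows, while Cdkn1b is darker there and Ccnd1 is dark throughout.

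Of the G1 genes, Ccnd2 and Ccnd3 were near their Th17 level in naive cells, while Cdk4 and Cdk6 stood lower. Ccnd2 stood at 618, 575 and 730 CPM in naive WT cells, at 680, 677 and 639 CPM in WT non-pathogenic and 609, 649 and 703 CPM in WT pathogenic cultures. The naive and Th17 ranges overlap. Ccnd3 stood at 96.3 to 106 CPM in naive and 114 to 131 CPM in pathogenic cells, close but apart. Ccnd1 was at 1.21 CPM or less in every T cell library, in contrast to untreated macrophages, and was not tested in Th17 cells. Cdk6 stood at 16.9, 13.1 and 11.5 CPM in naive WT and 277, 323 and 293 CPM in WT non-pathogenic cells, a 21.5-fold difference of the means, and Cdk4 at 23.1, 24.6 and 26.9 against 108, 114 and 109 CPM.

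Cdkn1b and Cdkn1a stood in opposite order in naive and Th17 cells. Cdkn1b stood at 92.1, 99.4 and 96.4 CPM in naive WT cells of the W250S set and at 22.3, 23.4 and 24.7 CPM in non-pathogenic and 27.5, 25.7 and 27.8 CPM in pathogenic cultures, with every naive library above every Th17 library. Cdkn1a is not listed in that naive table and read 0.0764, 0.168 and 0.0001 CPM in the other naive WT libraries. In WT Th17 cells it stood at 101, 128 and 88.3 CPM (non-pathogenic) and 119, 135 and 118 CPM (pathogenic).

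Replication genes differed in how far naive cells already held them. Mcm2 stood at 22.6, 24.8 and 27.5 CPM in naive WT and 94.6, 95.8 and 92.8 CPM in non-pathogenic cells, a difference of 1.88, and Gins2 at 14.4, 18.9 and 16.0 against 30.6, 32.4 and 32.4 CPM (0.92). Pclaf, at 0.264, 0.248 and 0.107 against 145, 174 and 150 CPM (7.02), and Rrm2 (6.25) lay below 1 CPM in every naive WT library of that set. Mki67 stood at 1.60, 1.71 and 1.52 CPM in naive and 433, 588 and 611 CPM in non-pathogenic cells, a 337.1-fold difference of the means, and Top2a at 0.727, 0.686 and 1.01 against 160, 176 and 179 CPM (6.58). By role the median difference was 6.04 for chromosome and spindle genes, 5.05 for the 11 mitotic genes compared, 3.97 for DNA synthesis, 2.91 for E cyclins and E2F factors and 2.68 for licensing. Of the mitotic genes all but Foxm1 fell short of 1 CPM in 3 naive libraries of that set. So did Kif11, Tpx2, Pclaf, Rrm2, Tyms, Ccne1, Ccne2, E2f1, E2f8 and Cdc6. With such low naive values the difference mostly follows the Th17 level, so these medians do not rank the roles. E2f8, Cdk1 and Ccnb2 are listed at 0 in a naive WT library of that set and no fold is given for them. Between WT pathogenic and non-pathogenic cells none of 44 members differed by that rule, where 0.133% of all genes did, with a median difference of -0.05.

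In naive T cells the libraries labelled KO differed from their WT in 4 of the 24 members tested, 2 higher and 2 lower, where 4.38% of all genes were higher and 3.64% lower. E2f2 stood at 13.6, 14.7 and 11.1 CPM in WT and at 21.4, 20.1, 18.4 and 18.2 CPM in KO-labelled libraries, all of which are higher (0.54, SE 0.10, adjusted p = 0.00625). Cdkn2c was higher (0.59, SE 0.16, adjusted p = 0.0453), with 2.04, 1.98 and 1.44 CPM against 3.93, 2.77, 2.30 and 4.20 CPM. The licensing factor Cdt1 was lower, with 10.1, 11.0 and 10.7 against 9.29, 8.11, 7.56 and 7.6 CPM (-0.35, adjusted p = 0.0371), and so was Mcm6 (-0.34, adjusted p = 0.0346). Only E2f2 was called whichever library was left out, and Cdkn2c, Cdt1 and Mcm6 each lost their call in 6 of the 7 fits that left out 1. With no filter on low values Cdkn2c (adjusted p = 0.0705) and Cdt1 (adjusted p = 0.0551) were not called. The other 21 members were too low to test. Erythroid transcripts summed to between 0.0189 and 34.0 CPM over the KO-labelled libraries, and their part was not tested.

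W250S naive cells differed in 1 of 22 members tested, where 3.29% of all genes were higher and 0.856% lower. It was again E2f2, at 13.0, 12.7 and 10.0 CPM in WT and 17.8, 15.6 and 16.6 CPM in W250S libraries, which all lie above the WT (0.46, SE 0.12, adjusted p = 0.0364). After median-ratio scaling it was 0.38 and not called (adjusted p = 0.12), and with no filter on low values it was not called either (adjusted p = 0.0787). The call was also lost without WT replicate 3 (adjusted p = 0.129) or W250S replicate 1 (0.214), 2 (0.0962) or 3 (0.0859). The naive sets share no WT libraries, and their E2f2 differences were 0.54 and 0.46.

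Non-pathogenic W250S Th17 cells were higher in 2 of the 44 members tested and lower in none, where 4.13% of all genes were higher and 2.94% lower. Cdkn1a stood at 101, 128 and 88.3 CPM in WT and at 142, 142 and 129 CPM in W250S cells, all above the WT (0.39, SE 0.11, adjusted p = 0.0470). Ccne2 stood at 8.09, 10.8 and 9.27 CPM in WT and 12.1, 13.1 and 12.8 CPM in W250S cells, with no overlap (0.40, SE 0.10, adjusted p = 0.0331). After median-ratio scaling 3 were higher and 1 lower, with Ccnb1 (0.21, adjusted p = 0.0442) and Mcm2 (-0.17, adjusted p = 0.0496) added. Without WT replicate 2 there were 7 higher, with Ccna2, Ccnb1, E2f8, Pclaf and Rrm2 added, and none without WT replicate 3 or any W250S replicate. With no filter on low values neither Ccne2 (adjusted p = 0.0552) nor Cdkn1a (adjusted p = 0.0697) was called. Of 16 other p53 targets 5 were higher in these cells (Perp 0.66, Ccng1 0.48, Zmat3 0.44, Aen 0.42 and Mdm2 0.30), with a median of 0.23 over the list and 0.04 over all genes.

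In pathogenic cultures 1 of 44 members was higher and 1 lower in W250S cells, where 0.9% of all genes were higher and 1.17% lower. Cdkn1a stood at 119, 135 and 118 CPM in WT and 171, 159 and 181 CPM in W250S cells, again without overlap (0.46, SE 0.07, adjusted p = 0.00984). Its call was lost without W250S replicate 1 (adjusted p = 0.0535) or 3 (0.0945). Cdkn1b was lower, at 27.5, 25.7 and 27.8 CPM in WT and 20.9, 20.7 and 19.2 CPM in W250S cells, which all lie below (-0.40, SE 0.07, adjusted p = 0.0160), a call lost without WT replicate 1 (0.0652) or W250S replicate 1 (0.0634) or 3 (0.124). None of the 16 p53 targets was called here by limma, with 7 below 0.05 unadjusted, none called after median-ratio scaling and a median of 0.14. Stromal markers, of which 3 of 9 are listed, summed to 19.8 to 29.1 CPM in WT and 38.9 to 47.3 CPM in W250S cultures, and in non-pathogenic cells 2 of 9 are listed and summed to 3.77 to 5.51 and 8.49 to 10.2 CPM. Their part in these differences was not tested. Whether the effect of W250S differs between the cultures was not tested either.

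**Figure D5:**
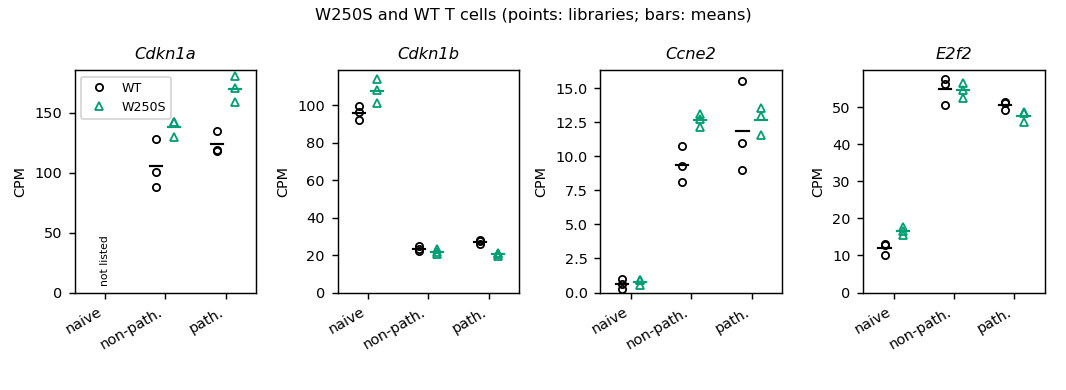
CPM of Cdkn1a, Cdkn1b, Ccne2 and E2f2 in naive, non-pathogenic (non-path.) and pathogenic (path.) T cells, with WT libraries as circles, W250S libraries as triangles and bars at the group means (each cell type from its own table). W250S libraries lie above WT for Cdkn1a in both cultures, for Ccne2 in non-pathogenic and for E2f2 in naive cells, and below WT for Cdkn1b in pathogenic cells.

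Promoter peaks of accessible chromatin were found in naive T cells for nearly all members, also for many with little transcript. The authors' annotation places 66 peaks at the starts of 44 members, and none at that of Mcm7. The strongest promoter peak of a member had a median signal of 50.4, in reads scaled to the depth in peaks (CPM of peak reads), against 33.3 over 14186 genes with such a peak, and 35 of the 44 lay above that. For 21 members a peak stood beside a transcript under 1 CPM in naive WT cells. The Top2a peak (build mm10, chr11:99023778-99024971), which covers the promoter printed above, read 79.0, 84.2 and 99.7 CPM in WT and 86.2, 94.8 and 81.4 in KO-labelled libraries. The Cdk1 peak (chr10:69352232-69353308) read 32.5, 36.8 and 37.2 in WT and 30.6, 38.3 and 30.4 in KO-labelled libraries, and both genes overlap between genotypes.

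No promoter peak of a member was called between KO-labelled and WT cells by edgeR's quasi-likelihood test, among 54 tested, where 0.00851% of 47000 peaks were called either way. Of the 54, 8 had an unadjusted p below 0.05, and DESeq2 called none, with 4 below 0.05. Over all 47000 peaks, 4641 lay below 0.05 unadjusted by edgeR and 2555 by DESeq2. At E2f2, the gene whose transcript was higher in these libraries, 2 promoter peaks were tested, with differences of opposite sign. The stronger (chr4:136179837-136180761) read 26.5, 32.8 and 37.3 CPM in WT and 40.8, 44.96 and 40.0 in KO-labelled libraries, all of which are higher (0.36, adjusted p = 0.330). The other (chr4:136171828-136172511) read 10.7, 11.6 and 9.88 CPM in WT and 8.46, 11.2 and 9.69 CPM in KO-labelled libraries, which overlap (-0.15, adjusted p = 0.826). Without WT replicate 1 the peaks of E2f1 (0.86), Ccne2 (0.84) and Ccne1 (0.48) were called higher, among 56 member peaks tested. Over all 50118 peaks tested in that fit, 1882 were higher and 188 lower.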

How the data were processed

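RNA was measured in 43 libraries and open chromatin in 6. Expression values are CPM from the authors, per the file headers, 1 table each for macrophages, the 2 naive T cell sets and the 2 Th17 cultures. For ATAC-seq the deposited values are expected counts over 86911 common peaks, with 6.19 to 13.7 M reads in peaks per library. Per the submitters' processing notes mm10 was the build, and Partek 10.0.21.0411, BWA, Bowtie2, MACS2 and DESeq2 were used, for which assay is not given in the sources used here. Between 90.9% and 96.1% of low CPM values per library were whole multiples of the value of 1 read (tolerance 0.1), too few to run a count test. Reads that fit several near-identical genes, strand and duplicates are not described in the sources used here.

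Members and gene lists were chosen with earlier results of these data known. Genes at 1 CPM or more in at least 3 libraries were tested on log2(CPM + 1) with limma 3.58.1 (R 4.3.3, eBayes with trend, two-sided). The 18 macrophage libraries were fitted together, so that a gene's spread is shared by all times, and T cell tables separately. Tests of the change over time by genotype are differences of 2 such changes. Expected counts were rounded (58 peaks held values that are not whole) and tested with edgeR 4.0.16, with DESeq2 1.42.0 as an alternative. Promoter peaks are those the authors annotate at transcription starts, in place of a planned distance of 1000 bases, because starts were at hand for only 36 members. All 45 members are accounted for. Values are given mainly for up to 3 called members per role with the greatest change and a mean of at least 5 CPM. Members that go against their role are named too. For the KO response to LPS only counts, medians and single genes are given. The other pathway genes named are up to 3 called each way. Genes whose names spreadsheet software turned into dates (19 to 20 per T cell table) were dropped. Alternatives were median-ratio scaling, a pseudocount of 0.1 CPM, no filter on low values, a fit of the compared groups only, a replicate block, and leaving out each library.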

Additional observations from a re-analysis of the deposited data

Results flagged for a closer look

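The change from 0 to 16 h of LPS differed between KO and WT macrophages, by limma's test of that difference, for 11 members. Only 2 of them, Pclaf and Rrm2, kept their call whichever library was left out. KO minus WT was higher for Pclaf (1.73, adjusted p = 0.0125), Ccna2 (1.44, adjusted p = 0.0279), Bub1 (1.44, adjusted p = 0.0286), Top2a (1.43, adjusted p = 0.0305), Rrm2 (1.42, adjusted p = 0.0151), Plk1 (1.26, adjusted p = 0.0366), Bub1b (1.14, adjusted p = 0.0210), Mcm2 (0.97, adjusted p = 0.0378) and Cdk4 (0.73, adjusted p = 0.0359), and lower for Ccnd2 (-1.04, adjusted p = 0.0307) and Cdk6 (-0.73, adjusted p = 0.0381).

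W250S and WT libraries lay apart in opposite directions in 2 cell types for 3 members. By limma, Cdkn1b was 0.16 higher in naive cells, not called (adjusted p = 0.453), and lower in pathogenic Th17 cells (-0.40, adjusted p = 0.0160). Cdk2 was called in neither culture, at 0.16 in non-pathogenic (adjusted p = 0.164) and -0.15 in pathogenic Th17 cells (adjusted p = 0.256). E2f2 stood at 0.46 in naive cells (adjusted p = 0.0364) and at -0.086, not called, in pathogenic Th17 cells (adjusted p = 0.451). The difference between cell types was not tested in any of them. The share of all genes that lie apart in this way was not counted.

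Among 23 members examined in the 4 KO-labelled naive libraries, a single library stood apart for 2. Mcm3 read 9.65 CPM in replicate 2 and 7.98 to 8.23 CPM in the others, and Rrm1 read 5.73 CPM in replicate 4 and 7.08 to 7.27 CPM in the others. Chance alone marks about 1 in 20 such groups.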

How the results depend on the processing

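Of 464 comparisons of member counts with an alternative, 404 stayed within 1.5 times and 60 moved. Of 9400 values of single members, 9127 kept their call and direction, 171 lost a call, 100 gained a call and 2 reversed: under median-ratio scaling Pcna in WT at 4 h of LPS read 0.011 and Cdk4 in KO from 4 to 16 h read -0.17.

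For KO against WT at 16 h the higher members numbered 15 to 23 and the lower 2 to 4 when each library was left out, and 5 were lower under median-ratio scaling. For the change from 0 to 16 h by genotype 2 to 14 were higher and 0 to 2 lower when each library was left out, 1 was lower in a fit of the compared groups only, and 16 were higher without KO replicate 2 at every time, added after seeing the data. At 4 h KO against WT gave 1 higher with a pseudocount of 0.1 CPM and 0 to 1 without a library. In KO from 0 to 16 h 1 was higher in a fit of the compared groups only and 1 to 2 without a library. KO-labelled naive cells gave 1 higher and 1 lower without the filter, and 1 to 2 higher and 0 to 2 lower without a library. W250S naive cells gave 0 higher without the filter and under median-ratio scaling, and 0 to 1 without a library. Non-pathogenic Th17 cells gave 0 higher without the filter, 1 lower under median-ratio scaling and 0 to 7 higher without a library. Pathogenic Th17 cells gave 0 to 1 higher and 0 to 1 lower, and promoter peaks 0 to 3 higher, without a library. With a library left out, fewer libraries entered the fit. The cause of the other moves was not tested.

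Replicate numbers were not taken to pair libraries. Libraries of the same macrophage genotype and number at 2 times had correlated deviations (r from 0.057 to 0.53, median 0.22, over 18 pairs). For those of the same genotype with different numbers r ran from -0.48 to 0.10 (median -0.10, over 36 pairs). The main fit leaves out this link between times. For libraries of 2 genotypes with the same number at least 1 pair per table lay under 0.1 (-0.20 to 0.12 in macrophages, -0.039 to 0.16 and 0.033 to 0.32 in the naive sets, 0.012 to 0.18 and -0.18 to 0.075 in Th17 cells). With a replicate block by genotype and number 22 members were higher for the change from 0 to 16 h by genotype. For contrasts of a genotype against WT the block instead linked libraries of the same number, whatever their genotype. It gave 28 higher for KO against WT at 16 h, 2 higher at 4 h and 2 higher in W250S naive cells.

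In naive T cells 21 and 23 members of the 2 sets were not tested, since they are not listed or did not reach 1 CPM in 3 libraries. That is a fixed filter, and depth was not tested as a limit.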
